A study of Homo sapiens with 8 samples.

Results

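The comparison set MDA-MB-231 cells that received the dibenzothiophene S-oxide 1-SO and were irradiated with UV-A beside cells that received the corresponding sulfide 1-S and stayed in the dark. Its members are 4 of the 8 libraries of the series: 1-SO with UV-A and vehicle with UV-A from round 1, and 1-S in the dark and vehicle in the dark from round 2. The question was whether light turns 1-SO into a treatment that resembles 1-S, and the members were taken by compound and light, not by any measured value. For the size of a response each compound library was set against the vehicle library of its own round and light, so the 2 responses compared by size share no library. The tests drew on all vehicle libraries. The other 4 libraries (1-SO in the dark and vehicle in the dark from round 1, 1-S with UV-A and vehicle with UV-A from round 2) served as controls for the same genes.

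Both compounds are dibenzothienylmethyl triphenylphosphonium cations, of which 1-SO carries an oxygen on the ring sulfur and 1-S does not. As background, dibenzothiophene S-oxides lose that oxygen under UV-A and leave the sulfide, and lipophilic triphenylphosphonium cations collect in mitochondria because of the membrane potential. Mitochondrial dysfunction is known to raise the integrated stress response, in which phosphorylated eIF2 favours translation of the transcription factor ATF4 and ATF4 raises genes of amino acid supply. Misfolded cytosolic protein is known to act through HSF1, which raises the cytosolic chaperones, and interferon-stimulated genes respond to cytokine and nucleic acid sensors. How much 1-S formed in the irradiated wells was not measured in these files.

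MDA-MB-231 is a human triple-negative breast cancer line with mesenchymal features. Both compounds were given at 10 µM for 24 h, the vehicle wells held 1% DMSO, and 600000 cells were seeded per well. Irradiation lasted 30 min under 8 bulbs with output from 325 to 375 nm, and dark plates were wrapped in foil. Round 1 (vehicle and 1-SO) was made at passage 8 and round 2 (vehicle and 1-S) at passage 32 to 34, so compound, round and passage cannot be told apart, and plate and light cannot be told apart within a round. Each compound and light has 1 library, whereas vehicle has 2 dark and 2 irradiated libraries, 1 per round. The libraries held 15816049 to 22564754 counted reads. Of the line's markers VIM, EGFR and AXL were at 40.8 FPKM or above in all 8 libraries, and SPARC, listed among them, was at 0.158 FPKM or below. The luminal markers ESR1 and CDH1 were at or near 0, the highest value being 0.050 FPKM for ESR1, whereas KRT8, listed among luminal markers, was at 47.4 to 222 FPKM.

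Levels are given as FPKM (fragments scaled to transcript length and library depth), and responses as differences of log2(FPKM + 1) from the matched vehicle, where 1 is a doubling of a well expressed gene. The tests are edgeR quasi-likelihood tests over 12696 genes with round as a block, and called means an adjusted p under 0.05. They set each compound library against a vehicle level fitted from the vehicle libraries of both rounds. A tested response can therefore differ from the log2(FPKM + 1) difference, as for the gene RRM2 with irradiated 1-SO (-0.70 against -0.39). With dark vehicle as comparator of irradiated 1-SO, the test adds the light response fitted over both rounds. In these tests the spread comes from the vehicle libraries alone, with 1 residual degree of freedom supported by 26 prior degrees of freedom shared across genes. That residual is how far the light response of vehicle cells differed between the rounds. The single compound library is assumed to vary like a vehicle library. Nothing in the labels says that the libraries were separate cultures on separate days within a round. The p-values therefore rest on this vehicle residual and not on a spread between replicate cultures.

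Irradiated 1-SO and dark 1-S moved many of the same genes in the same direction, and the 1-S response was the larger. Irradiated 1-SO differed from its vehicle by at least 1 on the log2 scale at 344 genes (2.71% of those tested), 185 higher (1.46%) and 159 lower (1.25%). Dark 1-S did so at 837 genes (6.59%), 545 higher and 292 lower. Of the 185 genes higher with irradiated 1-SO, 106 were also higher with dark 1-S, which is 57.3% of the first list and 19.4% of the second, where 4.29% of all genes were higher with dark 1-S. Of the 159 lower genes, 62 were also lower with dark 1-S, 39.0% of the first list and 21.2% of the second, against 2.3% of all genes. Only 5 genes passed the threshold in opposite directions.

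1-SO that had been kept in the dark had too few genes past the threshold for such an overlap to be judged by count. It differed from its vehicle by at least 1 at 20 genes (0.158%), 9 higher (0.0709%) and 11 lower (0.0866%), and of these 0 of 9 and 1 of 11 were past the threshold in the same direction with dark 1-S. None of the 168 shared genes reached the threshold with 1-SO in the dark, where their values ran from -0.85 to 0.63. With 0.158% of all genes past the threshold there, this 0 says little about the shared genes in particular. The edgeR test called 0 genes for 1-SO in the dark, with 26 genes at an unadjusted p under 0.05, 0 calls by DESeq2 and 2 by limma. Those 26 are far fewer than a share of 0.05 of the genes tested, which a calibrated test gives without any response. The test was thus conservative here, and its 0 calls do not show that dark 1-SO had no response. Light on vehicle cells of round 1 moved 76 genes (0.599%) past the threshold, of which 13 of 39 higher genes (0.307% of all) and 6 of 37 lower genes (0.291%) lay on the same side with dark 1-S.

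Across the 12696 genes the 2 responses had a Pearson r of 0.596 and a Spearman rho of 0.601, given as a description since genes are not independent replicates. The same correlation with dark 1-S was 0.0435 for 1-SO in the dark and 0.284 for the light response of round 1 vehicle. The root mean square response was 0.410 for irradiated 1-SO, 0.570 for dark 1-S and 0.158 for dark 1-SO. Of the 545 genes higher with dark 1-S, 493 (90.5%) were above 0 with irradiated 1-SO, and of the 292 lower genes 267 (91.4%) were below 0.

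**Figure D1:**
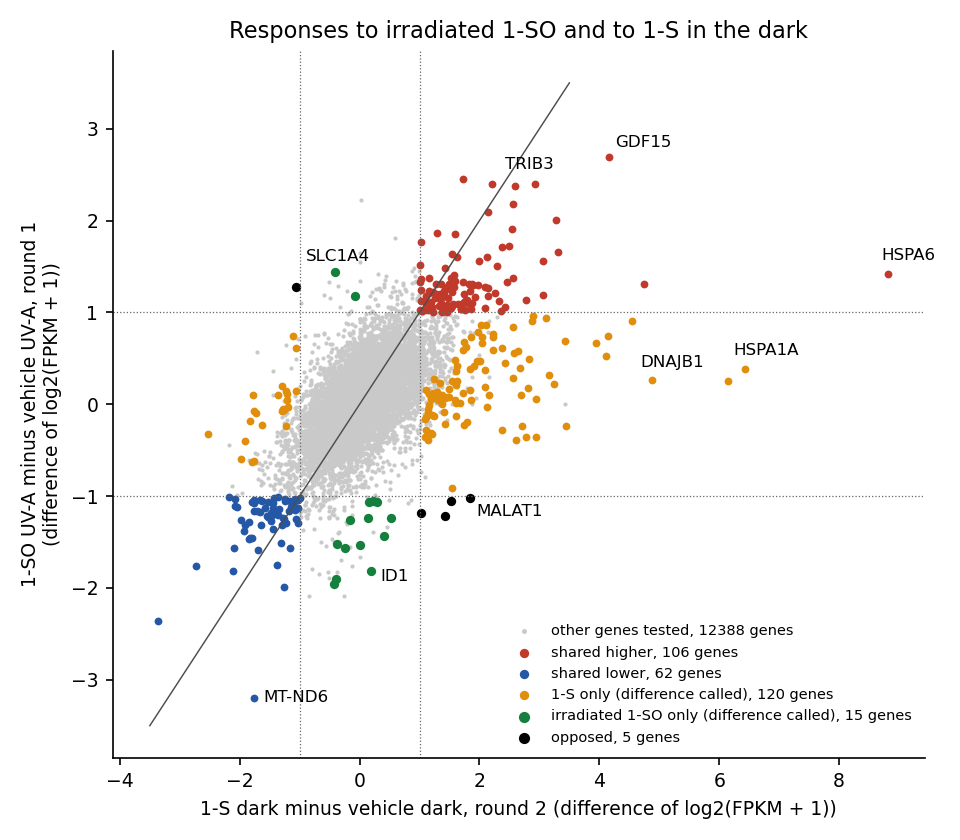
Response of each of the 12696 genes tested to 1-S in the dark (x axis, round 2) and to irradiated 1-SO (y axis, round 1), both as differences of log2(FPKM + 1) from the vehicle of the same round and light. Each point is a gene, coloured by class, the dotted lines mark a difference of 1 in either direction, and the solid line marks equal responses. The 106 shared higher and 62 shared lower genes fill opposite corners, the 1-S only genes stretch along the x axis to HSPA1A, and 5 genes are opposed.

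The edgeR test called 1462 genes (11.5%) for irradiated 1-SO, 567 higher (4.47%) and 895 lower (7.05%), and 3926 genes (30.9%) for dark 1-S, 2024 higher (15.9%) and 1902 lower (15%). With limma on log2(FPKM + 1) the split for irradiated 1-SO was 777 higher and 597 lower, and with edgeR and TMM over all 8 libraries it was 650 and 849. The balance between directions thus depends on the method. The limma fit differs in scale and in normalization, and these were not separated. The test of the difference between both responses called 164 genes (1.29%), at 31 of which (0.244%) irradiated 1-SO was the higher and at 133 (1.05%) the lower. At this depth and replication the median standard error of the difference was 0.34, its 95% interval spans 0.69 to either side (1.62-fold), and the smallest difference called was 1.09, so smaller differences between the compounds were mostly not detectable.

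Among the genes higher with both treatments were targets of ATF4. Of the 31 genes of an integrated stress response list that were tested (34 listed), irradiated 1-SO raised 28 and lowered 0, and dark 1-S raised 25 and lowered 1, with 25 raised in both. Their median response was 1.36 with irradiated 1-SO and 1.43 with dark 1-S, where the medians of all genes were 0.07 and 0.03. Irradiated 1-SO raised 4.47% of all genes tested, and dark 1-S raised 15.9%. With 1-SO in the dark the list's median was 0.02. The list was chosen with earlier results of these data known, and in the fit both calls draw on the same vehicle residual, so the 2 counts are not independent of each other. The test of the difference called 3 of the 31, ATF3, GDF15 and PPP1R15A, all lower with irradiated 1-SO. Among all genes 1.05% were called in that direction.

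TRIB3, a pseudokinase that feeds back on ATF4, stood at 22.4 FPKM in irradiated vehicle and 122 with irradiated 1-SO, and at 13.5 in dark vehicle and 110 with dark 1-S. The dark 1-SO library was at 25.1 FPKM, next to its vehicle at 23.1. The 2 TRIB3 responses differed by -0.61 ± 0.27 (log2, standard error; 95% interval -1.17 to -0.05; edgeR adjusted p = 0.393).
ADM2, which encodes the peptide adrenomedullin 2, rose from 1.89 to 14.2 FPKM with irradiated 1-SO and from 1.15 to 8.90 with dark 1-S. The ADM2 responses had a difference of -0.08 with a 95% interval from -0.88 to 0.71 (edgeR adjusted p = 0.977).
CTH, the cystathionine gamma-lyase that makes cysteine, rose from 14.4 to 68.9 FPKM and from 7.20 to 47.1 FPKM. Its difference was -0.49 with an interval from -1.14 to 0.15.
CHAC1, which degrades glutathione, rose from 12 to 48.0 FPKM and from 5.02 to 34.2 FPKM. In each of these genes the irradiated 1-SO library lay above the other 3 libraries of round 1, and both 1-S libraries lay above both vehicles of round 2.

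Further members rose with both, and for 3 of the 5 described here the difference was called, with the larger rise under 1-S. GDF15, a secreted stress cytokine of the TGF-beta family, went from 4.23 to 32.9 FPKM with irradiated 1-SO and from 6.03 to 125 with dark 1-S. Its responses differed by -1.47 ± 0.31 (edgeR adjusted p = 0.00938). DDIT3, which encodes the pro-apoptotic factor CHOP, went from 5.16 to 23.7 FPKM and from 4.48 to 52.2 FPKM, and that difference was not called (-1.37 ± 0.39, edgeR adjusted p = 0.088). NUPR1, a stress-induced chromatin protein, went from 4.29 to 26.5 FPKM and from 0.437 to 7.63 FPKM (difference -1.54 ± 0.46, edgeR adjusted p = 0.112). The value for NUPR1 depends on the scale, since its vehicle in round 2 was under 1 FPKM: on log2(FPKM + 1) the difference was -0.21 (limma adjusted p = 0.92). PPP1R15A, the subunit that directs dephosphorylation of eIF2, went from 112 to 356 FPKM and from 54.2 to 546 FPKM (difference -1.70 ± 0.33, edgeR adjusted p = 0.00391). ATF3 went from 6.93 to 16.5 FPKM and from 1.90 to 18.9 FPKM (difference -2.11 ± 0.35, edgeR adjusted p = 0.000631). Among all 168 shared genes 135 had the larger absolute response with 1-S, and the difference was called at 10.

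**Figure D2:**
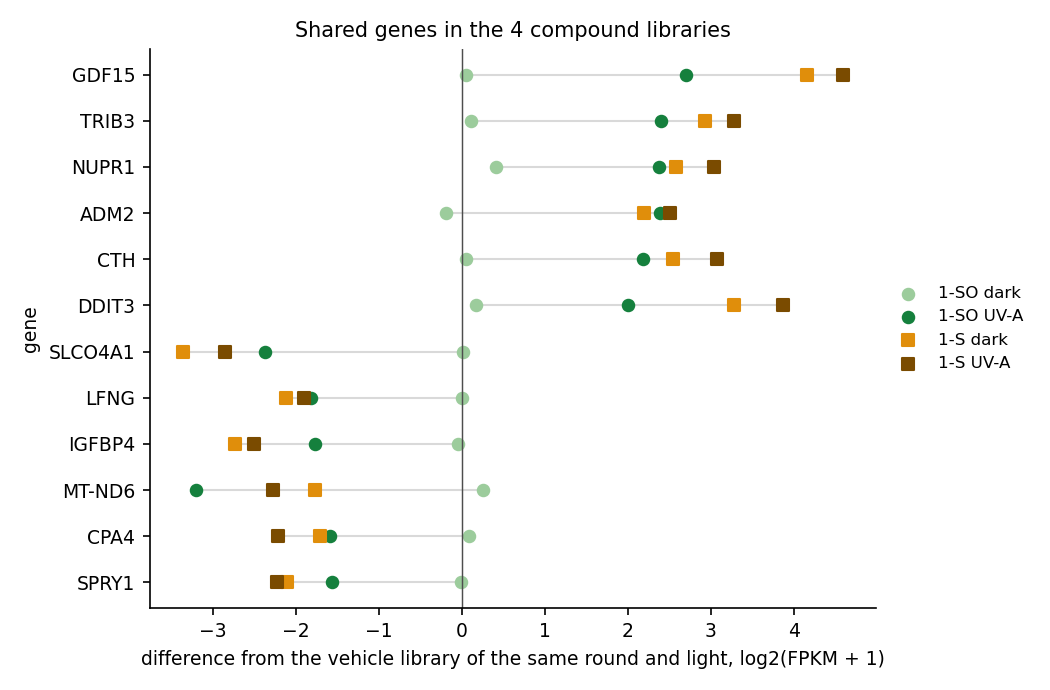
Response of the 6 leading shared higher and 6 leading shared lower protein-coding genes in the 4 compound libraries, each as the difference of log2(FPKM + 1) from the vehicle of its round and light. Circles are 1-SO and squares 1-S, lighter shades are dark libraries and darker shades irradiated ones. Dark 1-SO lies near 0 for all 12 genes, while irradiated 1-SO lies on the same side as both 1-S libraries.

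Genes of serine synthesis had no called difference. PSAT1, of the serine pathway, rose from 69.6 to 257 FPKM with irradiated 1-SO and from 59.9 to 147 with dark 1-S, a difference of 0.54 whose 95% interval ran from -0.10 to 1.19. PHGDH, the first enzyme of that pathway, rose from 18.9 to 45.7 FPKM with irradiated 1-SO and stood at 12.1 and 15.7 FPKM in dark vehicle and dark 1-S, without a call for 1-S and with an uncalled difference (edgeR adjusted p = 0.168). ATF4 itself rose from 145 to 321 FPKM and from 118 to 235 FPKM. ASNS, the asparagine synthetase, rose from 56.7 to 195 FPKM in round 1, while round 2 listed it at 0.219 FPKM in dark vehicle and 1.47 FPKM with dark 1-S. Its response to dark 1-S was 1.02, just past the threshold and from a level near the floor. Why its level differs so far between the rounds was not tested. The gene length given for 11347 of the 12696 genes differs between the tables of the rounds, so levels are compared within a round only.

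Promoters of the shared higher genes were searched for the C/EBP-ATF response element, the composite site that ATF4 binds with a C/EBP partner. RefSeq windows of GRCh38.p14, 250 bases before to 50 after the start, were matched for 68 of the 91 protein-coding shared higher genes, and 7 of them (10.3%) held TGATGNAA on either strand. The share was 1.56% of the 8823 promoters of tested protein-coding genes and 1.43% of the 70 matched promoters of genes higher with 1-S only. The windows of 4 of the genes with a match are printed, each on the gene's own strand with the match in capitals. In CHAC1 and HERPUD1 the match lies on the opposite strand. TRIB3, ADM2, CTH and DDIT3, which are among the leading shared higher genes, had a window without this element. The windows are at chr15:40953232-40953299 (+) for CHAC1, chr1:212565186-212565253 (+) for ATF3, chr7:97872439-97872506 (-) for ASNS and chr16:56931936-56932003 (+) for HERPUD1.
CHAC1: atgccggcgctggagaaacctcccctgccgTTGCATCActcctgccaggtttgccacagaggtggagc
ATF3: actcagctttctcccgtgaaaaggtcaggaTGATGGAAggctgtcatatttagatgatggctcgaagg
ASNS: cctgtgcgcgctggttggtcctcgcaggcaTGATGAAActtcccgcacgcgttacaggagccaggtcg
HERPUD1: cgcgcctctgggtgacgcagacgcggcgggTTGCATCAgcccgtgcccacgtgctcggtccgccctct
A match describes letters in the window and does not show that a factor bound there.

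Genes of neighbouring stress programmes were shared in part. For comparison, irradiated 1-SO raised 4.47% and lowered 7.05% of all genes tested, and dark 1-S raised 15.9% and lowered 15%. Of 21 genes of the unfolded protein response of the endoplasmic reticulum, irradiated 1-SO raised 8 and dark 1-S raised 6 and lowered 1, with 6 raised in both. HERPUD1, which serves degradation of endoplasmic reticulum proteins, rose from 35.0 to 80.7 FPKM and from 16.6 to 76.6 FPKM. Of 26 NRF2 targets 9 rose with each treatment and the same 9 in both, and dark 1-S lowered 2. HMOX1, heme oxygenase 1, rose from 8.92 to 28.3 FPKM with irradiated 1-SO and from 5.14 to 50.2 with dark 1-S (difference -1.66 ± 0.31, edgeR adjusted p = 0.00273). The median NRF2 target was 0.46 higher in irradiated than in dark vehicle of round 1 and -0.02 in round 2. Of 22 p53 targets irradiated 1-SO raised 5 and lowered 0, and dark 1-S raised 8 and lowered 1, with 4 raised in both, in a line that carries mutant p53. CDKN1A, the p21 inhibitor of cyclin-dependent kinases, rose from 81.4 to 250 FPKM and from 41.7 to 185 FPKM.

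Among the genes lower with both treatments were members of the extracellular matrix and DNA replication lists, and the leading genes came from neither. SLCO4A1, an organic anion transporter, fell from 29.5 to 4.92 FPKM with irradiated 1-SO and from 59.3 to 4.88 with dark 1-S. IGFBP4, a secreted binding protein of insulin-like growth factors, fell from 878 to 257 FPKM and from 1678 to 253 FPKM. LFNG, a glycosyltransferase that modifies Notch, fell from 4.79 to 0.644 FPKM and from 7.36 to 0.938 FPKM, with a difference between the responses of -0.01 (95% interval -0.83 to 0.82). SPRY1, an inhibitor of receptor tyrosine kinase signalling, fell from 26.3 to 8.23 FPKM and from 24.7 to 5.01 FPKM, and CPA4, a carboxypeptidase, from 25.9 to 7.93 FPKM and from 9.86 to 2.34 FPKM. In all 5 genes the dark 1-SO library lay near its vehicle, the furthest being CPA4 at a log2 difference of 0.09. Among 19 genes of the matrix tested, irradiated 1-SO lowered 12 and raised 0, and dark 1-S lowered 13 and raised 2, with 10 lowered in both. The shares of all genes lowered were 7.05% with irradiated 1-SO and 15% with dark 1-S.

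The DNA replication list behaved alike in count, where irradiated 1-SO lowered 7.05% of all genes and dark 1-S 15%. Of 36 genes irradiated 1-SO lowered 28 and dark 1-S 32, with 28 in both, and only RRM2, the small subunit of ribonucleotide reductase, passed the test of the difference (1.62 ± 0.33, edgeR adjusted p = 0.00591). RRM2 stood at 59.2 and 44.8 FPKM without and with 1-SO under light, and at 27.7 and 6.63 FPKM without and with 1-S in the dark. E2F1, a factor that drives entry into S phase, fell from 34.6 to 15.5 FPKM and from 62.2 to 13.9 FPKM. Vehicle libraries of round 1 differed with light in this list, whose median was -0.55 from dark to irradiated vehicle, and E2F1 was at 71.0 FPKM in dark and 34.6 in irradiated vehicle. In round 2 the median was 0.12 and E2F1 stood at 62.2 and 63.9 FPKM. The list's median was -0.60 for irradiated 1-SO against irradiated vehicle, -1.19 against dark vehicle and -0.94 for dark 1-S.

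Of the 42 matched promoters of the 57 protein-coding shared lower genes, 6 (14.3%) held the E2F motif TTTGGCGC or TTTCCCGC on either strand, against 3.89% of the tested protein-coding genes. E2F1 and TYMS, the thymidylate synthase of the nucleotide supply, are shown from among the genes with a match. The capitals mark the match, GCGGGAAA being TTTCCCGC on the opposite strand. TYMS fell from 32.0 to 12.9 FPKM and from 7.34 to 2.45 FPKM. The windows are at chr20:33686386-33686435 (-) for E2F1 and chr18:657584-657651 (+) for TYMS, in GRCh38.p14.
E2F1: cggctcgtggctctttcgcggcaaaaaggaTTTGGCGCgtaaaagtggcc
TYMS: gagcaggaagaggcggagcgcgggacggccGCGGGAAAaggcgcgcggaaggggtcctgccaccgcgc

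The cytosolic heat shock response separated the treatments. Of 24 heat shock genes dark 1-S raised 22 and irradiated 1-SO raised 1, HSPA6, and the test of the difference called 16, all lower with irradiated 1-SO, where 1.05% of all genes were called in that direction. Among all genes, dark 1-S raised 15.9% and irradiated 1-SO 4.47%. The list's median response was 0.03 with irradiated 1-SO and 1.47 with dark 1-S. With vehicle in the dark as the comparator of irradiated 1-SO the same test called 20 of the 24, all in that direction, against 2.12% of all genes lower and 0.528% higher.

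HSPA1A, an inducible Hsp70, stood at 11.6 FPKM in irradiated vehicle and 15.5 with irradiated 1-SO, and at 8.39 in dark vehicle and 810 with dark 1-S. The responses differed by -6.22 ± 0.35 (edgeR adjusted p = 2.27e-12). Its near-identical copy HSPA1B went from 62.5 to 75.0 FPKM and from 30.5 to 2223 FPKM, and how the reads were divided between the 2 copies is uncertain. DNAJB1, an Hsp40 co-chaperone of Hsp70, went from 172 to 206 FPKM and from 88.9 to 2646 FPKM (difference -4.67 ± 0.45, edgeR adjusted p = 1.05e-07). For each of these genes both 1-S libraries lay far above both vehicles of their round, while the largest response to irradiated 1-SO among them was 0.38.

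HSPB1, the small heat shock protein Hsp27, stood at 84.4 and 87.6 FPKM in round 1 under light and at 77.1 and 598 FPKM in round 2 in the dark. BAG3, a co-chaperone of autophagy, stood at 67.9 and 57.4 FPKM and at 88.2 and 581 FPKM, and HSPH1, an Hsp110, at 72.3 and 56.1 FPKM and at 36.3 and 254 FPKM. HSPA6, an Hsp70 that most unstressed cells hardly express, is counted as shared by size, since it rose from 1.05 to 4.47 FPKM with irradiated 1-SO and from 1.2 to 987 FPKM with dark 1-S. The difference between these responses was -7.53 ± 0.58 (edgeR adjusted p = 1.27e-09). The test did not call HSPA8, the constitutive Hsp70, which stood at 795 and 507 FPKM under light and at 368 and 674 FPKM in the dark (edgeR adjusted p = 0.080).

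**Figure D3:**
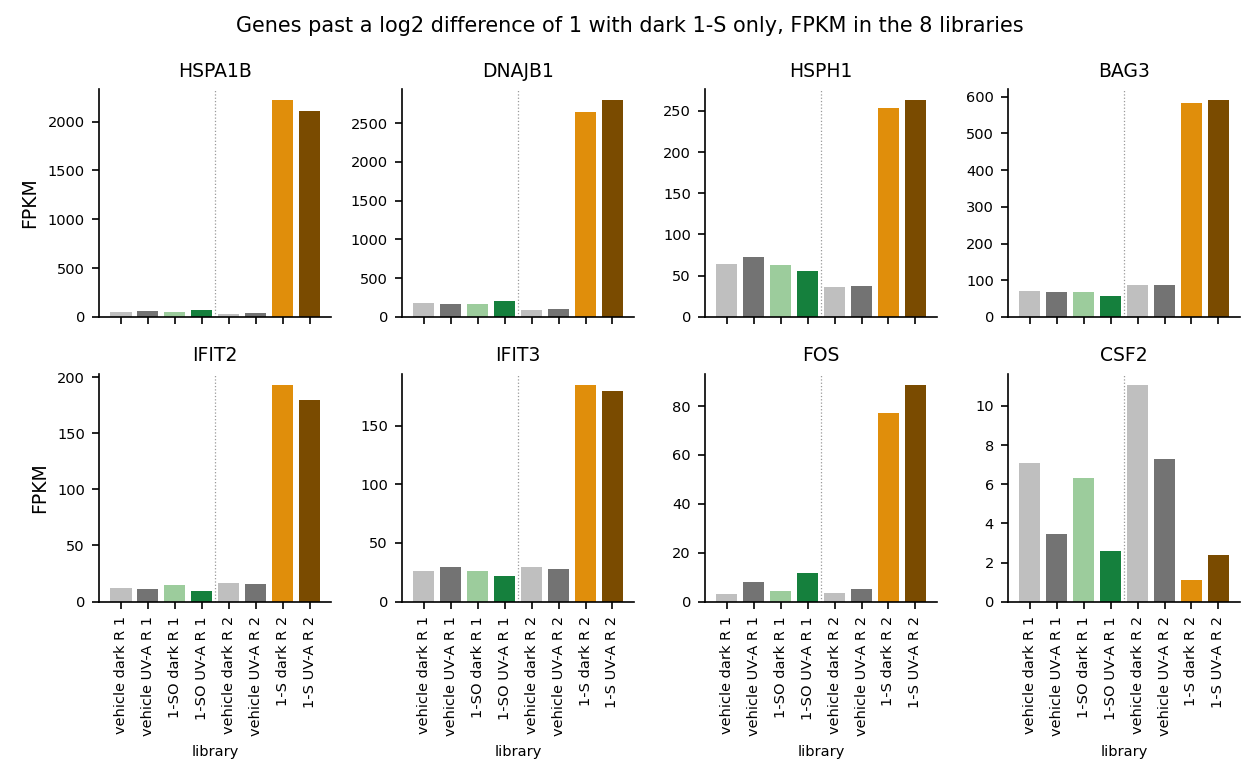
FPKM of 8 genes that passed a log2 difference of 1 with dark 1-S and not with irradiated 1-SO and had a called difference, in the 8 libraries, 1 bar per library and a scale of its own per panel; the dotted line separates round 1 (left) from round 2 (right). Both 1-S libraries are high for the chaperones HSPA1B, DNAJB1, HSPH1 and BAG3 and for IFIT2, IFIT3 and FOS, and low for CSF2, which was also lower in irradiated than in dark vehicle.

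Some interferon-stimulated genes rose with dark 1-S, which raised 15.9% of all genes and lowered 15%. For irradiated 1-SO these shares were 4.47% and 7.05%. At 1.05% of all genes the difference was called with irradiated 1-SO the lower. Of 19 interferon-stimulated genes dark 1-S raised 11 and lowered 1, irradiated 1-SO raised 0 and lowered 1, and the difference was called at 7, all lower with irradiated 1-SO. IFIT2, which binds viral RNA and blocks its translation, stood at 11.7 and 9.78 FPKM under light without and with 1-SO, and at 16.8 and 193 FPKM in the dark without and with 1-S (difference -3.82 ± 0.29, edgeR adjusted p = 1.27e-09). IFIT1 stood at 5.85 and 4.36 FPKM and at 7.43 and 63.9 FPKM, and OASL at 0.819 and 1.27 FPKM and at 1.73 and 23.4 FPKM. IRF7, a transcription factor of the interferon response, was called in neither treatment and stood at 18.9 and 21.3 FPKM and at 9.88 and 10.9 FPKM.

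Of 25 immediate early genes, which respond within minutes to growth factors and stress, dark 1-S raised 18 and lowered 1, and irradiated 1-SO raised 11 and lowered 2, each of those 11 being raised with 1-S too. The list was thus shared in part, with medians of 0.48 for irradiated 1-SO and 1.17 for dark 1-S, and the difference was called at 12, all lower with irradiated 1-SO. Among all genes, irradiated 1-SO raised 4.47% and dark 1-S 15.9%, and 1.05% had a called difference in that direction. FOS, a subunit of AP-1, stood at 7.97 and 11.9 FPKM under light and at 3.52 and 77.1 FPKM in the dark. Irradiated vehicle of round 1 held more FOS than dark vehicle, which stood at 3.01 FPKM, while those of round 2 stood at 4.98 and 3.52 FPKM. EGR1 stood at 48.2 and 72.9 FPKM under light and at 38.9 and 186 FPKM in the dark, and dark vehicle of round 1 was at 20.1 FPKM. With dark vehicle as comparator of irradiated 1-SO, by the light response fitted over both rounds, its difference was no longer called (edgeR adjusted p = 0.0733). DUSP1, a phosphatase of MAP kinases, stood at 20.8 and 40.9 FPKM and at 22.6 and 203 FPKM. SNAI1, a repressor of E-cadherin, stood at 1.65 and 3.95 FPKM and at 0.158 and 26.0 FPKM (difference -6.10 ± 0.62, edgeR adjusted p = 2.24e-07). With the SNAI1 vehicle level of round 2 under 1 FPKM the size depends on the scale, and on log2(FPKM + 1) the difference was -3.64 (limma adjusted p = 2.01e-06).

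By size, 664 genes passed the threshold with dark 1-S alone, 435 higher and 229 lower, and 592 of them had the same sign with irradiated 1-SO. At 544 of the 664 the difference between the responses was not called, so these genes are not shown to belong to 1 treatment. The remaining 120 are called 1-S only here: 97 higher and 23 lower. Of the 97 higher genes 15 were in the heat shock list, 10 in the immediate early list and 7 in the interferon list. Their median response was 0.18 with irradiated 1-SO, -0.02 with dark 1-SO and 1.84 with dark 1-S. Irradiated 1-S had the same genes high, with a median of 1.83 and 92 of the 97 past the threshold, where 4.95% of all genes were. When 1-S was set against irradiated vehicle of round 2 in place of dark vehicle, the count of 1-S only genes was 182 in place of 120, with 106 in both.

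Of the 23 genes lower with 1-S only, those with the largest differences are described. CD59, a surface inhibitor of complement, stood at 144 and 136 FPKM under light without and with 1-SO, and at 69.8 and 20 FPKM in the dark without and with 1-S (difference 1.69 ± 0.31, edgeR adjusted p = 0.00208). TGOLN2, a protein of the trans-Golgi network, stood at 62.8 and 55.1 FPKM and at 71.7 and 19.4 FPKM. H1F0, the linker histone of resting cells, stood at 125 and 209 FPKM and at 215 and 99.4 FPKM, the compounds lying on opposite sides of their vehicles (difference 1.82 ± 0.32, edgeR adjusted p = 0.00156). CSF2, the cytokine GM-CSF, and IGFBP7, a secreted binding protein, depended on the comparator. CSF2 stood at 3.47 and 2.59 FPKM and at 11.1 and 1.11 FPKM, and IGFBP7 at 26.5 and 24.7 FPKM and at 93.8 and 27.7 FPKM. In dark vehicle of round 1 they were at 7.07 and 56.8 FPKM. Against that library the log2(FPKM + 1) responses to irradiated 1-SO were -1.17 for CSF2 and -1.17 for IGFBP7. Those to dark 1-S against its own vehicle were -2.52 and -1.73. The test with dark vehicle as comparator used the light response fitted over both rounds, not that library alone. Its edgeR adjusted p of the difference was 0.105 for CSF2 and 0.0773 for IGFBP7.

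Of the 95 protein-coding genes higher with 1-S only, 70 had a promoter window. The heat shock element, searched on either strand as GAA, TTC and GAA with 2 free bases between neighbours, was in 3 of them (4.29%) against 0.306% of tested protein-coding genes and 1.47% of the shared higher genes. The interferon-stimulated response element, searched on either strand as a pair of GAAA with 2 free bases between them and added after the values had been seen, was in 7 (10%) against 2.84% and 2.94%. The C/EBP-ATF element was in 1 (1.43%). CHORDC1 and SERPINH1 for the first element and IFIT1 and IFIT3 for the second are shown from among the genes with a match, marked in capitals. DNAJB1, among the leading genes higher with 1-S only, had a window without the heat shock element. CHORDC1, an Hsp90 co-chaperone, stood at 11 and 9.29 FPKM and at 5.39 and 16.1 FPKM, and SERPINH1, a collagen chaperone, at 66.6 and 74.3 FPKM and at 29.0 and 107 FPKM. The windows are at chr11:90223057-90223139 (-), chr11:75562147-75562219 (+), chr10:89392477-89392559 (+) and chr10:89327811-89327914 (+), in GRCh38.p14.
CHORDC1: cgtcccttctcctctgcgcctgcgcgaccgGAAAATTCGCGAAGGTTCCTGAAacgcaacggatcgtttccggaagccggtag
SERPINH1: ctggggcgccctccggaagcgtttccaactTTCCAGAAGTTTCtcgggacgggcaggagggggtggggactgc
IFIT1: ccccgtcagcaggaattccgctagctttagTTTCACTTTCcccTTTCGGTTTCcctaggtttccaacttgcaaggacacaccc
IFIT3: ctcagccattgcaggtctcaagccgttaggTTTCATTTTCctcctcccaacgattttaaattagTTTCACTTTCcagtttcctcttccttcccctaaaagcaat
In CHORDC1 the capitals join 3 overlapping matches, and both IFIT windows hold 2 matches.

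Genes of irradiated 1-SO only were few. By size 171 genes passed the threshold with irradiated 1-SO alone, 78 higher and 93 lower, 143 of them with the same sign under dark 1-S, and at 156 the difference was not called. The remaining 15 are 2 higher genes, SLC1A4 and GLRX, and 13 lower ones. SLC1A4, the neutral amino acid transporter ASCT1, stood at 7.45 FPKM in irradiated vehicle and 21.9 with irradiated 1-SO, and at 6.76 in dark vehicle and 4.88 with dark 1-S (difference 1.98 ± 0.31, edgeR adjusted p = 0.000232). GLRX, the glutathione-dependent glutaredoxin 1, stood at 14.8 and 34.9 FPKM and at 9.78 and 9.19 FPKM (difference 1.29 ± 0.28, edgeR adjusted p = 0.0127). For both genes the irradiated 1-SO library lay above the other 3 libraries of round 1, and dark 1-S lay below its vehicle. The test also called SLC1A4 lower with dark 1-S (-0.62, edgeR adjusted p = 0.0211), so by calls it moved in opposite directions, and GLRX was not called there (edgeR adjusted p = 0.787).

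ID1, an inhibitor of differentiation factors and a target of BMP signalling, led the lower genes. It stood at 24.4 FPKM in irradiated vehicle and 6.19 with irradiated 1-SO, and at 37.1 in dark vehicle and 42.6 with dark 1-S (difference -2.22 ± 0.34, edgeR adjusted p = 0.000236). The dark 1-SO library was at 26.1 FPKM and its vehicle at 32.1.
Of the 13 lower genes 4 belong to the list of G2/M and spindle genes: CDC20, which switches on the anaphase-promoting complex, KIF20A, a kinesin of cytokinesis, the kinase PLK1 and the cyclin CCNB1. CDC20 stood at 115 and 39.1 FPKM under light, and at 97.0 and 96.9 FPKM in the dark (difference -1.59 ± 0.28, edgeR adjusted p = 0.00111). KIF20A stood at 48.2 and 12.2 FPKM and at 34.0 and 25.7 FPKM, and PLK1 at 24.5 and 7.61 FPKM and at 18.6 and 15.6 FPKM.

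Over the whole G2/M list of 30 genes irradiated 1-SO lowered 27 and dark 1-S 9, each of the 9 also with irradiated 1-SO, and the difference was called at 4. Among all genes, irradiated 1-SO lowered 7.05% and dark 1-S 15%, and 1.05% had a called difference with irradiated 1-SO the lower. The list's median was -0.93 with irradiated 1-SO and -0.35 with dark 1-S. Irradiated 1-S lay between, with a median of -0.48 and 29 of the 30 genes below 0. In the test the responses to irradiated 1-S were -0.71 for KIF20A, -0.65 for PLK1, -0.20 for CDC20 and -0.29 for CCNB1. The choice of vehicle touches this group. Irradiated vehicle of round 1 lay above dark vehicle for 11 of the 13 genes, and KIF20A stood at 48.2 against 22.9 FPKM. Against dark vehicle of round 1 all 13 stayed below 0 but 7 reached the threshold. The test with dark vehicle as comparator used the light response fitted over both rounds, not that library alone. In it the difference was no longer called for TROAP, NEK2 and CCNB1 (edgeR adjusted p = 0.052, 0.185 and 0.148). For KIF20A this test gave a difference of -1.03. Against the dark library itself KIF20A was at -0.86 with irradiated 1-SO, where dark 1-S had -0.39. The G2/M median against dark vehicle was -0.54, and the count of 1-SO only genes was 38 in place of 15, with 9 in both.

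Of the 12 protein-coding genes lower with irradiated 1-SO only, 9 had a promoter window and 5 of these (55.6%) held TTTGAA on either strand, the core of the cell cycle homology region of G2/M promoters, against 9.45% of tested protein-coding genes. The 5 were ANLN, CDC20, ID1, NEURL1B and PLK1, and of these only CDC20 and PLK1 are in the G2/M list. Genes lower with 1-S only held the motif in 23.1% of their 13 windows. Genes higher with 1-S only held it in 14.3% of 70. CDC20 and PLK1 are shown, the capitals marking the match. The windows are at chr1:43358886-43358951 (+) and chr16:23678830-23678888 (+), in GRCh38.p14.
CDC20: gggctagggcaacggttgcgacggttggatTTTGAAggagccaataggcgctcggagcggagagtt
PLK1: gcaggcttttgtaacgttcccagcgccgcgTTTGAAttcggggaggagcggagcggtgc

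**Figure D4:**
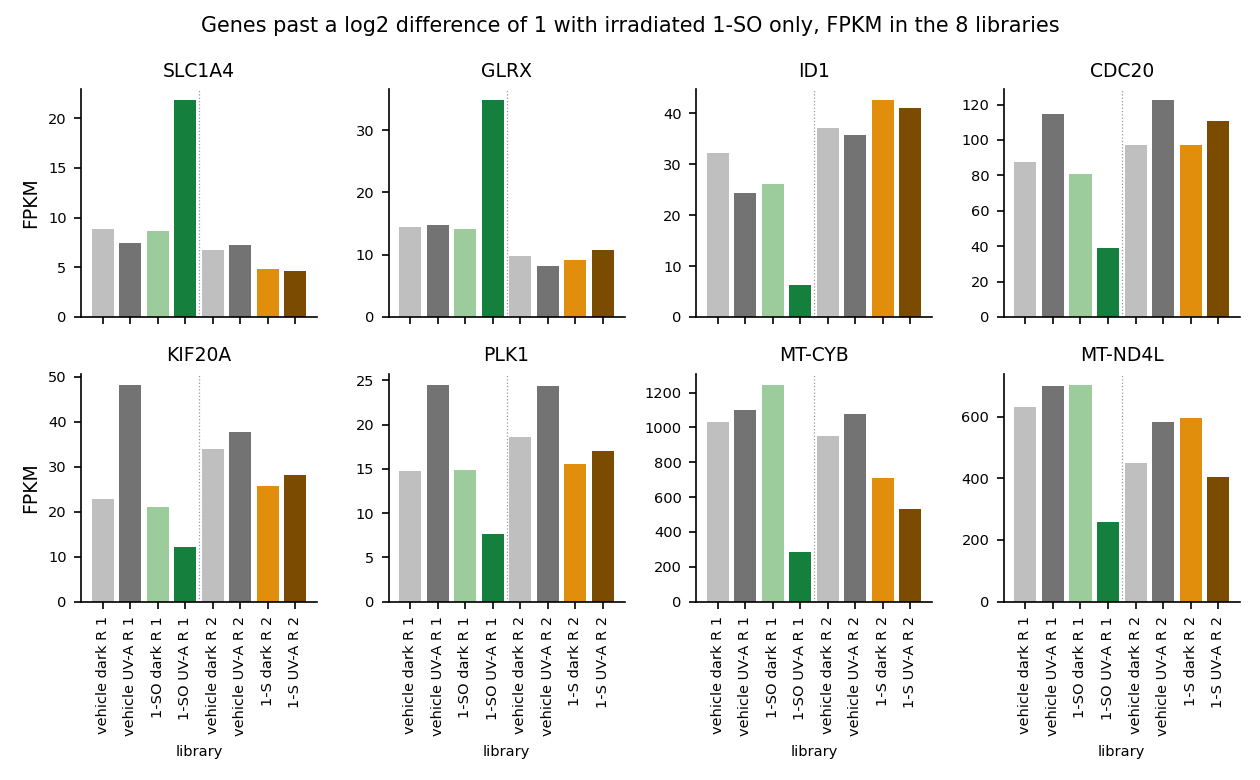
FPKM of 8 genes that passed a log2 difference of 1 with irradiated 1-SO and not with dark 1-S and had a called difference, in the 8 libraries, 1 bar per library and a scale of its own per panel; the dotted line separates round 1 (left) from round 2 (right). Within round 1 the irradiated 1-SO library is the highest for SLC1A4 and GLRX and the lowest for the other 6 genes, while vehicle of round 1 was itself higher under light for CDC20, KIF20A and PLK1.

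Transcripts of the mitochondrial genome lay further below their vehicle with irradiated 1-SO than with dark 1-S. Of 13 such mRNAs irradiated 1-SO lowered 12 and dark 1-S 4, and the list's medians were -1.55 and -0.34. The shares of all genes lowered were 7.05% and 15%. Irradiated 1-S had part of this fall, with a list median of -0.69 and 13 of the 13 below 0, where dark 1-S had 10 below 0. The median of all genes with irradiated 1-S was 0.05. Mitochondrial genes took 0.938% of the reads with irradiated 1-SO, where its irradiated vehicle had 2.78% and dark 1-SO 3.04%. Dark 1-S had 1.81%, irradiated 1-S 1.42% and the vehicles of round 2 2.42% and 2.45%. MT-CYB, cytochrome b of complex III, fell from 1098 to 283 FPKM with irradiated 1-SO and stood at 949 and 707 FPKM without and with dark 1-S (difference -1.57 ± 0.36, edgeR adjusted p = 0.0183). MT-ND6, the complex I subunit encoded on the light strand, fell with both treatments, from 513 to 55.1 FPKM and from 326 to 95.3 FPKM, and further with irradiated 1-SO (difference -1.48 ± 0.28, edgeR adjusted p = 0.00306). The use of strand in counting is not stated, so reads counted for MT-ND6 may be shared with transcripts of the opposite strand. MT-ND4L, which overlaps MT-ND4 so that their reads may be shared, stood at 698 and 258 FPKM and at 449 and 597 FPKM.

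The test of the difference called 3 of the 13 mitochondrial mRNAs with irradiated vehicle as the comparator and 6 with dark vehicle. All were lower with irradiated 1-SO, where 1.05% and 2.12% of all genes were called in that direction. With irradiated 1-S in place of dark 1-S the difference for MT-CYB was -1.04 and missed the threshold (edgeR adjusted p = 0.0588). MT-CYB was itself at -1.02 with irradiated 1-S on log2(FPKM + 1), so it is 1-SO only with respect to dark 1-S. MT-ND4L was at -0.53 there. MTATP6P1, a nuclear pseudogene copy of the mitochondrial MT-ATP6, was among the 13 lower genes and may carry reads of its mitochondrial parent. Of 59 nuclear genes of the respiratory chain irradiated 1-SO changed 0, where 11.5% of all genes were called, and dark 1-S lowered 16 and raised 1, where 15% of all genes were lower and 15.9% higher. Their median response was 0.06 with irradiated 1-SO and -0.27 with dark 1-S, and 51 of the 59 were below 0 with dark 1-S. This contrast depends on the comparator. From dark to irradiated vehicle of round 1 the median was -0.25, with 53 of the 59 below 0. Set against dark vehicle, irradiated 1-SO had a median of -0.21, with 48 of the 59 below 0. In bulk RNA fewer cells of a kind and less RNA per cell cannot be told apart.

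**Figure D5:**
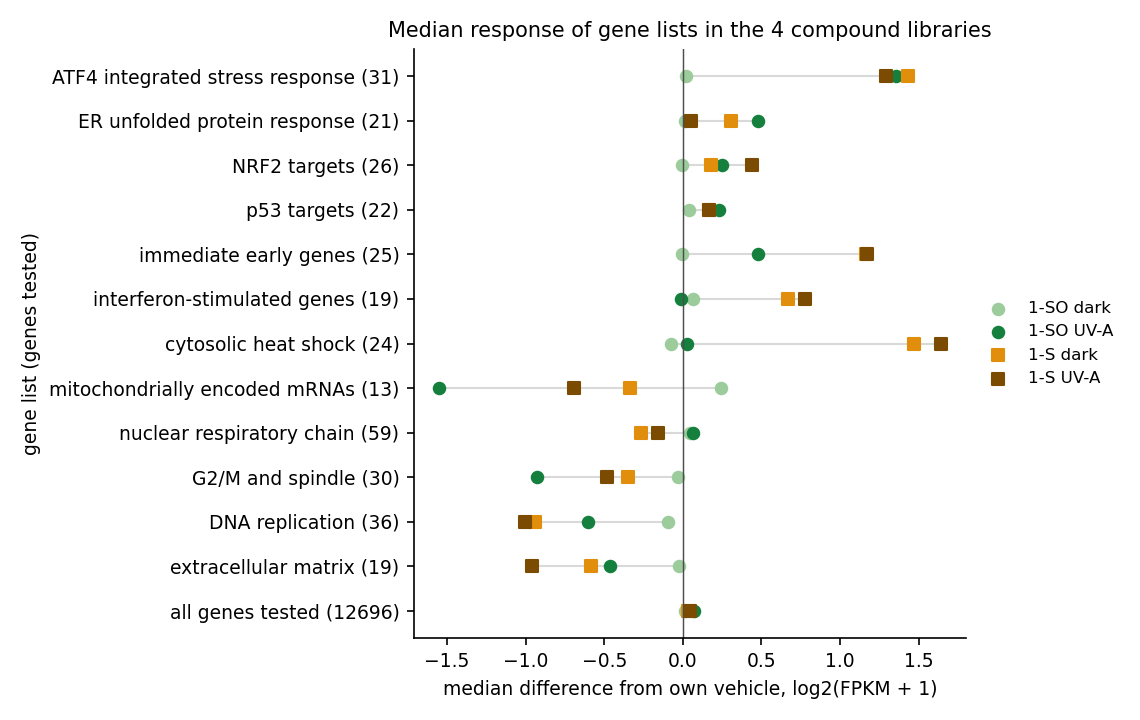
Median response of 12 gene lists and of all genes tested in the 4 compound libraries, each from the difference of log2(FPKM + 1) to the vehicle of the same round and light. Circles are 1-SO and squares 1-S, lighter shades are dark libraries and darker shades irradiated ones, and the number of genes tested stands in brackets. The lists of ATF4 targets lie together for irradiated 1-SO and 1-S, the heat shock list lies apart, and the mitochondrial mRNAs and G2/M genes are lowest with irradiated 1-SO.

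The 5 opposed genes held no protein-coding gene. MALAT1, a nuclear long noncoding RNA, stood at 97.6 FPKM in irradiated vehicle and 47.8 with irradiated 1-SO, and at 53.8 in dark vehicle and 196 with dark 1-S, with a called difference (-2.93 ± 0.45, edgeR adjusted p = 0.000247). Its vehicle levels varied as much, from 30.0 FPKM in dark to 97.6 in irradiated vehicle of round 1, and dark 1-SO was at 55.6 FPKM, so the direction with 1-SO depends on the vehicle. The other 4 were the lincRNA RP11-200A1.1, the antisense RNA AC100830.5 and the pseudogenes RHOT1P1 and SNRPGP4, none of them with a called difference. Where the classes were drawn at the threshold, CERS4, WARS and LPAR1 were just inside the shared class, each with a smaller response of 1.00 in size, and SLC26A11, FAM129A and PRKAB2 just outside at 0.996, 0.994 and 0.993.

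Fewer genes separated irradiated 1-SO from 1-S than separated dark 1-SO from it. Of the 4 pairs of a 1-SO and a 1-S treatment at the same dose and time, the difference was called at 164 genes (1.29%) for irradiated 1-SO and dark 1-S, 451 (3.55%) for irradiated 1-SO and irradiated 1-S, 2181 (17.2%) for dark 1-SO and dark 1-S, and 1144 (9.01%) for dark 1-SO and irradiated 1-S. With p-values adjusted over the 4 pairs together the counts were 331, 564, 1634 and 1047. These pairs share libraries, and pairs of unlike light carry more vehicle error, the median standard error being 0.34 for irradiated 1-SO against dark 1-S and 0.29 for dark 1-SO against dark 1-S. With both compounds under light, the responses of HSPA1A, IFIT2, SLC1A4 and ID1 still differed by -6.12, -3.81, 1.95 and -2.41 on the log2 scale (edgeR adjusted p = 2.22e-13, 5.52e-11, 2.04e-05 and 5.28e-06), as they did with 1-S in the dark.

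Setting irradiated 1-SO against dark vehicle of round 1 raised the counts of shared genes to 162 higher, 91 of them among the 106, and 127 lower, 56 of them among the 62, and the genes past the threshold with irradiated 1-SO alone from 171 to 416. Against that vehicle 5.59% of all genes passed the threshold, 2.99% higher and 2.61% lower. The correlation with dark 1-S was then 0.623. The test of the difference, with dark vehicle taken from the light response fitted over both rounds, called 336 genes (2.65%). In the authors' deposited table for irradiated 1-SO against irradiated vehicle, 62 genes had an adjusted p under 0.05, and in the authors' deposited table for dark 1-S against dark vehicle 850 did. Of these 37 were in both of the authors' deposited tables, 21 higher and 16 lower with 0 of opposite sign, which is 59.7% of the 62 and 4.35% of the 850.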

How the data were processed

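The authors' deposited tables gave whole read counts and FPKM per gene for each library, and fold changes on a log2 scale with p-values per comparison, 1 set of tables per round. Per the submitters' processing notes, STAR 2.5, HTSeq 0.6.1, TopHat, DESeq2 and edgeR 3.16.5 were used with the builds hg19 and hg38; the notes do not say which round used which, but gene lengths differ between the rounds. Per the labels' protocols, mRNA was poly-A selected; the use of strand in counting is not stated.

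The 45341 Ensembl genes of both rounds were joined, holding 98.15 to 99.23% of the counts, and the 12696 that reached 1 FPKM in 2 or more libraries were tested. Counts went into edgeR 4.0.16 (quasi-likelihood, TMM within rounds, terms for round, light and each compound group, Benjamini-Hochberg over all genes); the biological coefficient of variation was 12.0%. Responses are differences of log2(FPKM + 1) with a pseudocount of 1 and a threshold of 1. A count of 3 reads, the limit of a 0, is 0.133 to 0.190 CPM. Checked on simulated data with 200 of 12696 genes changed 4-fold, the test recovered 95.0% for irradiated 1-SO and 85.5% for the difference, with 15 and 9 false calls. The simulated libraries shared the mean of the vehicle libraries and the same variation, with no effect of round, of light or of 1-S. These rates therefore need not hold for the real libraries. The round number marks a shared batch in the labels, and vehicle libraries of the same round deviated together (r = 0.863 across genes).

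Genes named are, among protein-coding genes, the 6 shared per direction with the largest smaller response, all opposed genes if up to 8, the 6 per direction of 1 treatment only with the largest difference between responses, and list members that pass a test or on which a count turns. MALAT1 and the other opposed noncoding genes, SERPINH1, the genes at the threshold and the promoters printed were chosen after their values were seen. The promoters printed were taken only from genes that held the motif. The members and lists were chosen with earlier results of these data known. Alternatives used DESeq2 1.42.0, limma 3.58.1, other factors, filters, pseudocounts, thresholds and comparators. R 4.3.3, Python 3.11.15 and pandas 2.3.3 were used.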

Additional observations from a re-analysis of the deposited data

How the results depend on the processing

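Counts depended on the tool and on the block. With DESeq2 the calls were 489 for irradiated 1-SO, 1587 for dark 1-S and 76 for the difference. With no replicate block, that is without pairing libraries by round, edgeR called 0, 19 and 0 genes, with 1525, 2750 and 598 at an unadjusted p under 0.05, and IGFBP7 changed sign at -0.39 in the difference; the cause was not tested. For the difference, limma called 158 genes, a filter at 5 FPKM 273, dark vehicle as comparator of irradiated 1-SO 336, and adjustment over the 4 compound pairs 331. A pseudocount of 0.1 gave 275 shared higher, 129 shared lower and 35 opposed genes, 295 past the threshold with irradiated 1-SO alone and 1216 with dark 1-S alone; a pseudocount of 5 gave 35, 26, 0, 46 and 232. A threshold of 1.5-fold gave 523, 351, 30, 696 and 2002, and edgeR calls in place of size gave 444, 619, 3, 396 and 2860. On log2 CPM shared lower genes were 120 and opposed genes 1; with a filter at 5 FPKM opposed genes were 1 and those past the threshold with irradiated 1-SO alone 102. Replacing 1 vehicle library by the other of its round gave 114 to 162 shared higher, 63 to 127 shared lower, 4 to 5 opposed, 163 to 416 by size with irradiated 1-SO alone, 543 to 786 with dark 1-S alone, 18 to 38 genes of irradiated 1-SO only and 157 to 182 of 1-S only. The correlation of the 2 responses ran from 0.519 to 0.651 over its alternatives. Of the 32 named differences, 27 kept their side of the threshold with dark vehicle as comparator and 26 with DESeq2. Tests without 1 vehicle library could not be fitted, since no residual degree of freedom was left.

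Each compound library stands alone, so its own variation was not measured, and reads without molecular identifiers limit precision at low counts. A single plate carried the light, and the labels do not state how long after irradiation the cells were lysed.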
